A study of Macaca fascicularis with 2 samples.

Results

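*HBB* and *ALAS2* are 2 of the 29324 genes counted in double-positive (DP) T cells, which carry both CD4 and CD8, from the blood of a cynomolgus monkey, and they were taken by their gene symbols. *HBB* encodes the β chain of haemoglobin. *ALAS2* encodes the erythroid form of 5-aminolevulinate synthase, the enzyme of the first step of haem synthesis. They were selected because both had led a cluster of naïve-like cells in an earlier analysis of the same counts, so their totals are a description and were not tested. The animal was 1 untreated male aged 10 years. Mononuclear cells of fresh blood were taken with CD4 beads and then with CD8 beads, stained with barcoded antibodies to CD4 and CD8α, and made into 1 gene library and 1 tag library of the same cells. Each count is a UMI (unique molecular identifier), standing for 1 captured RNA molecule. There was no second animal, so no difference has a test across animals, and every interval below covers counting error only.

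Haemoglobin joins 4 globin chains, and each chain holds a haem group that binds oxygen. Erythroid precursors in the bone marrow make very large amounts of globin RNA. They make haem with *ALAS2*, whose translation follows the supply of iron, whereas most other cells use *ALAS1* for the same step. A reticulocyte, the young red cell that has just entered the blood, has lost its nucleus and is losing its mitochondria, but it still holds globin RNA. T cells are not known as a source of globin, and red cells are meant to be removed from mononuclear cell preparations.

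The deposited counts covered 8953 barcodes with 31966868 gene UMIs. The limits of the study (200 to 4000 genes and at most 20% mitochondrial UMIs) left 8830 cells with 31677119 gene UMIs, and the median cell had 3145. The study states a smaller number of cells after its filter, and the step behind the difference is not given in the sources used here. Outside the limits lay 123 barcodes, 71 of them with under 200 genes. The 5 T cell genes *CD3D*, *CD3E*, *CD3G*, *CD4* and *CD8A* had a median of 10 UMIs in a kept cell, and 155 kept cells other than the *HBB*-rich droplet described next had none of them.

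Nearly all of the *HBB* and *ALAS2* RNA came from 2 droplets, and neither droplet held any RNA of the T cell genes. *HBB* had 5687 UMIs in 18 barcodes. Droplet 1, which passed the limits on cells, held 4447 of them. Droplet 2, which had too few genes to pass, held 1224. The remaining 16 *HBB* UMIs lay in 16 kept cells with exactly 1 each, and 0 barcodes had between 2 and 4. The 2 *HBB*-rich droplets were 0.0223% of all barcodes (exact 95% interval 0.00271 to 0.0807%) and carried 99.7% of the *HBB* UMIs.

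*ALAS2* was found nowhere else. It had 50 UMIs in droplet 1, 2 UMIs in droplet 2 and 0 in the other barcodes, whose 31955739 gene UMIs allow at most 0.0939 CPM (counts per 1000000 gene UMIs, with a limit of 3 UMIs wherever a count of 0 is said to allow a level). Both genes therefore occurred together in 2 of the 18 barcodes with *HBB* and in 2 of the 2 barcodes with *ALAS2*. None of the 16 cells with 1 *HBB* UMI had *ALAS2*. At the ratio of the summed droplets, 16 *HBB* UMIs would go with 0.147 *ALAS2* UMIs, so that a like ratio in these cells could not be seen at this depth.

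**Figure D1:**
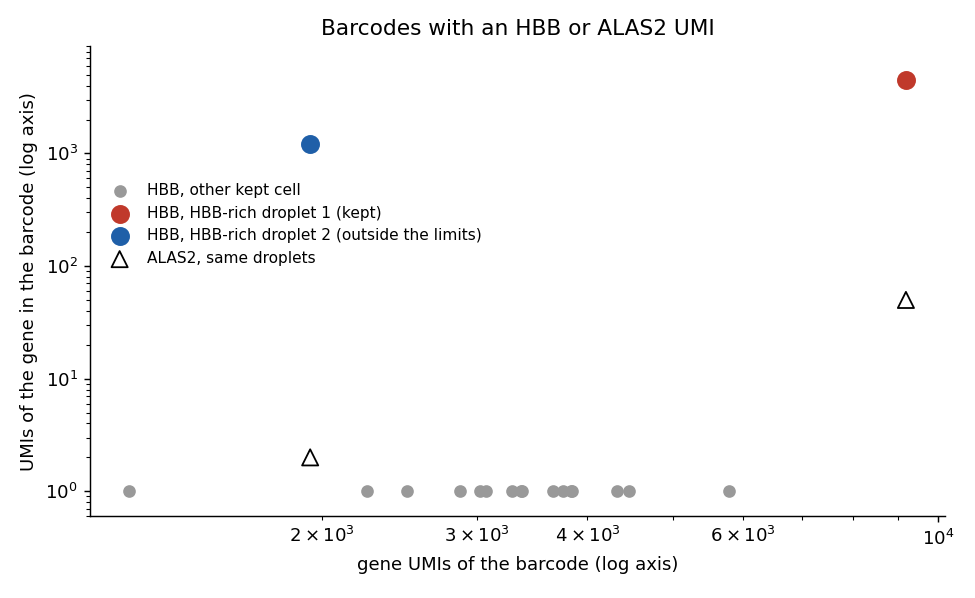
UMIs of *HBB* (filled circles) and *ALAS2* (open triangles) in each barcode that held any, against all gene UMIs of that barcode, both on log axes. The 2 *HBB*-rich droplets lie at 4447 and 1224 *HBB* UMIs, the 16 other cells all lie at 1, and *ALAS2* is present in the 2 droplets only.

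Droplet 1 was deep but poor in genes. It had 9190 gene UMIs from 310 genes, or 29.6 UMIs per gene, while the other kept cells had a median of 2.78 and a highest value of 11.2. *HBB* made up 48.4% of its gene UMIs (exact binomial 95% interval 47.4 to 49.4%) and *ALAS2* 0.544% (0.404 to 0.717%). Droplet 2 had 1939 gene UMIs from 50 genes, or 38.8 UMIs per gene. *HBB* made up 63.1% of them (60.9 to 65.3%) and *ALAS2* 0.103% (0.0125 to 0.372%). Droplet 1 held 88.9 *HBB* UMIs for each *ALAS2* UMI (67.3 to 120.0) and droplet 2 held 612 (169 to 5059). These intervals do not overlap, although the second rests on 2 *ALAS2* UMIs.

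RNA of the 13 protein-coding mitochondrial genes was nearly absent from the *HBB*-rich droplets. Mitochondrial ribosomal RNA is not part of the mitochondrial counts given here, so they do not measure all mitochondrial RNA of a droplet. Genes without a symbol were not matched to names, and any mitochondrial ones among them are not counted either. Droplet 1 had 1 UMI of the 13 mitochondrial genes, 0.0109% of its gene UMIs, and droplet 2 had 0, which allows up to 0.155%. The other 8829 kept cells had a median of 3.63%, a lowest share of 0.838%, and in no case fewer than 2 mitochondrial UMIs. Shallow barcodes in general did not lack this RNA. The 70 other barcodes with under 200 genes had a median of 25 genes and 19.4% mitochondrial UMIs, the lowest share was 6.57%, and they held 0 UMIs of *HBB* and of *ALAS2*.

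The listed genes of white blood cells were at 0 in both droplets. This held for every measured gene of the T cell, naïve, cytotoxic, Treg, Th17, Th2, Tfh, Eomes+ Tr1, innate, B cell, monocyte, myeloid, platelet and cycling lists. *PTPRC*, the pan-leukocyte antigen CD45, and *B2M*, the light chain of MHC class I, also had 0 UMIs. In the other kept cells *B2M* had a median of 20 UMIs and was detected in 99.5%, and *PTPRC* was detected in 93.2%. Not every gene abundant in those cells was at 0. *CD52*, which is outside these lists, had 18 UMIs in droplet 1 and 3 in droplet 2, and stood at 2855 CPM in the other kept cells. A count of 0 allows 326 CPM in droplet 1 and 1547 CPM in droplet 2. Only the T cell, naïve and cytotoxic lists stood above both limits in the other kept cells, at 3162, 2339 and 1654 CPM. The other lists of white cells stood below 326 CPM, so their counts of 0 do not tell the droplets from the other cells at this depth. Both limits are shares of all gene UMIs. Besides *HBB*, *ALAS2* and 2 genes without a symbol described below, droplet 1 held 1153 UMIs and droplet 2 held 82. Against those UMIs alone a count of 0 allows higher levels, above all in droplet 2, and this holds for the mitochondrial share too. The barcodes of both droplets carried few antibody tags, with 97 CD4 and 129 CD8 tag UMIs in droplet 1 and 95 and 135 in droplet 2. The medians were 418 and 298 in the other kept cells and 138 and 200 in the B gate defined below, so the tags of the droplets were below those of both.

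**Figure D2:**
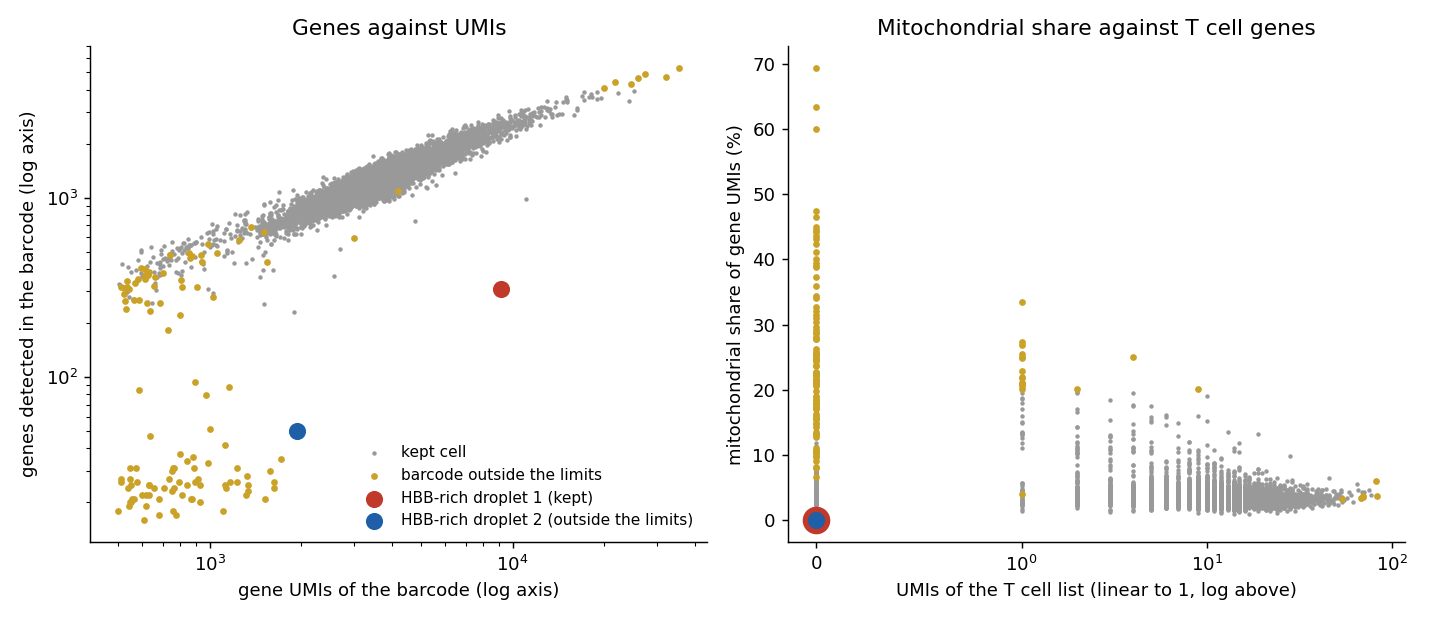
Each point is a barcode. The left panel gives genes detected against gene UMIs on log axes, and the right panel gives the mitochondrial share of gene UMIs against UMIs of the 5 T cell genes. Droplet 1 (9190 UMIs, 310 genes) lies under the band of kept cells, and both *HBB*-rich droplets lie at 0 T cell UMIs and at or near 0% mitochondrial UMIs in the right panel, where their points cover each other.

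Other erythroid genes were read in the same droplets. Of the erythroid list of 62 genes, 50 were among the symbols. Droplet 1 held 23 of the 50 (21 besides the members) and droplet 2 held 6 (4 besides the members). With the genes limited to those with a UMI in at least 3 kept cells, 15 of 31 erythroid genes had a UMI in droplet 1, against 2.14% of all 13710 such genes. At least 2 times the CPM of the other kept cells was reached by 14 of the 31, against 0.802% of all genes. In droplet 2, 4 of the 31 had a UMI, against 0.35% of all genes. *HBB* is among the 31 and is counted in the 15, the 14 and the 4. Its place in each was set by the choice of the droplets. The list was chosen with earlier results known and the droplets were chosen by *HBB*, so these are descriptions. Of the 10 measured genes of a shorter reticulocyte list, 7 were read in droplet 1 and 2 in droplet 2. *EPB42*, *HEMGN* and *GATA1* were at 0 in both. Only 3 of the 10 had a UMI in at least 3 kept cells. Of these 3, 2 were read in droplet 1 and 1 in droplet 2, beside the 2.14% and 0.35% of all genes.

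Of the other named globin genes, only *HBM* was read in droplet 1. *HBM*, the globin μ gene, had 11 UMIs there and 0 elsewhere. *AHSP*, the chaperone of free α-globin chains, had 7, and no other kept cell held any. *HBQ1*, the globin θ gene, had 0 UMIs in droplet 1 and 1 in droplet 2. *HBZ*, the globin ζ gene, had 0 in both and 1 UMI in another kept cell. Genes for the α chain and *HBD* are missing among the symbols used here and were not analysed. *HBB* also has close copies among the β-like globin genes, so the counting could have placed UMIs of a near-identical copy under *HBB*.

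The haem pathway was seen in part. Of its 11 genes, all among the symbols, droplet 1 held 4: *ALAS2*, *FECH* (8 UMIs), which adds iron in the last step, and *PPOX* (2 UMIs) and *ALAD* (1 UMI), which act between them. Droplet 2 held *ALAS2* and 1 *FECH* UMI. Of the 11, 10 had a UMI in at least 3 kept cells, and *ALAS2* was not among these. Droplet 1 held 3 of the 10 and droplet 2 held 1, beside 2.14% and 0.35% of all such genes. *SLC25A37*, the mitochondrial iron importer mitoferrin, had 10 UMIs in droplet 1. *ALAS1*, the form used by other cells, had 0 UMIs in both droplets and 238 UMIs in 225 other barcodes. The 326 CPM that its count of 0 allows in droplet 1 are above its level in the other cells, so a difference was not detectable at this depth. Its level was 7.05 CPM (5.93 to 8.32) in naïve gate cells and 6.73 (4.85 to 9.10) in cytotoxic gate cells, and these intervals overlap.

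Genes linked to the late stages of red cell maturation were in the same droplets. *CA1*, the abundant carbonic anhydrase of red cells, had 37 UMIs in droplet 1 and 1 in droplet 2. *BNIP3L*, the receptor for removal of mitochondria, had 15 and 4. *FTL*, the ferritin light chain, had 27 and 2, and *GPX4*, a lipid peroxidase, 36 and 1. *BNIP3L*, *FTL* and *GPX4* were also read outside the droplets, at 95.3, 1110 and 404 CPM in the other kept cells. Of the 7 genes of the iron-responsive list, droplet 1 held 2 and droplet 2 held 1. Among all genes with a UMI in at least 3 kept cells, the shares were 2.14% and 0.35%. *FTL* was in both droplets, at 2938 CPM in droplet 1. *FTH1*, also of that list, went the other way, with 5 and 0 UMIs. It stood at 544 CPM in droplet 1 and 1733 CPM in the other kept cells. The erythroid transcription factor *KLF1* had 2 UMIs and the anion exchanger *SLC4A1* had 1, both in droplet 1.

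A pair of genes with no symbol filled most of the rest. ENSMFAG00000003180 had 3447 UMIs in droplet 1 (37.5%) and 605 in droplet 2 (31.2%). ENSMFAG00000037705 had 93 and 26. For each UMI of ENSMFAG00000003180, droplet 1 held 1.29 *HBB* UMIs (1.23 to 1.35) and droplet 2 held 2.02 (1.83 to 2.23). Outside these genes and the members, droplet 1 kept 1153 UMIs of 306 genes. Of these, 135 UMIs were of ENSMFAG00000000004, also without a symbol, which had 9 in droplet 2 and 33791 CPM in the other kept cells. ENSMFAG00000000002, without a symbol too, had 9 UMIs in droplet 1, 8 in droplet 2 and 18154 CPM in the other kept cells. What these genes encode was not looked up. The droplets shared 39 genes, which were 12.6% of the genes of droplet 1 and 78.0% of those of droplet 2.

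**Figure D3:**
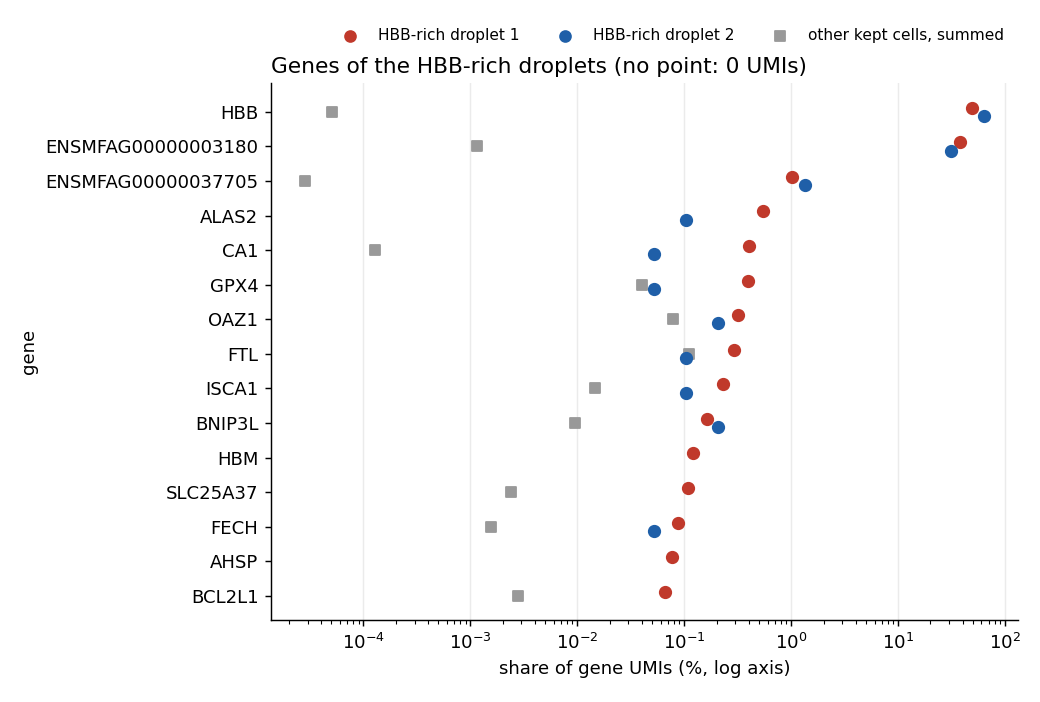
Share of gene UMIs (log axis) for 15 genes of the *HBB*-rich droplets, in droplet 1 (red), in droplet 2 (blue) and in all other kept cells summed (grey squares); a missing point stands for 0 UMIs. *HBB* lies at 48.4% and 63.1% in the droplets, while *ALAS2*, *HBM* and *AHSP* have no grey square because the other kept cells held 0 of their UMIs.

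The 16 cells with a single *HBB* UMI had the depth and, in 15 cases, the T cell RNA of the other kept cells. Their gene UMIs ran from 1209 to 5788 with a median of 3367.5, against 3145 in all kept cells. Their mitochondrial share ran from 1.82 to 5.87%. *CD3E* was detected in 15 of them, with 0 to 9 UMIs and a median of 6. None of the 16 had *CA1*, ENSMFAG00000003180 or ENSMFAG00000037705. Their barcodes differed from that of droplet 1 in at least 9 of 16 bases and from that of droplet 2 in at least 10. The cell without *CD3E* had 1209 gene UMIs, 3 UMIs of B cell genes and 0 of the T cell list.

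By cell type, the 16 UMIs were spread thinly. A naïve gate (at least 3 UMIs of *CCR7*, *LEF1* and *TCF7*, genes of resting T cells that home to lymph nodes) held 5508 cells. A cytotoxic gate (at least 3 UMIs of *GZMB*, which encodes granzyme B) held 1437, and 176 cells were in both. A B gate (at least 2 UMIs of *CD79A*, part of the B cell receptor, and 0 of *CD3E*) held 115. *HBB* had 12 UMIs in the naïve gate, or 0.605 CPM (exact Poisson 95% interval 0.312 to 1.06). It had 1 in the cytotoxic gate, or 0.160 CPM (0.00406 to 0.893), 0 in the B gate, which allows 5.0 CPM, and 3 in kept cells of no gate without droplet 1. Droplet 1 itself was in no gate.

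The naïve and cytotoxic gates could not be told apart in *HBB*. The log2 ratio of CPM was 1.92 in favour of the naïve gate, with an interval from -0.84 to 7.33 that includes 0. The share of cells with an *HBB* UMI was 0.218% in the naïve gate (0.113 to 0.380%) and 0.0696% in the cytotoxic gate (0.00176 to 0.387%). With each cell thinned to 2200 UMIs these were 0.176% and 0.0717%, after 754 shallower kept cells were left out. The median depths were 3082 and 3661 UMIs, and 4593 in the B gate. The 0 of 115 B gate cells allow a share of up to 2.61%, above both values, so the B gate was too small to measure a background, and expression above background was not shown. *ALAS2* had 0 UMIs in all 3 gates, and no ratio was taken. With 13 and 0 UMIs over the naïve and cytotoxic gates, both genes were under the minimum of 50 UMIs set for a call across genes.

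Inside the naïve gate, cells with *DNTT* or *PDE6H*, genes that marked part of the naïve cells, held 6 *HBB* UMIs, and the cells without them held the other 6. The levels were 0.709 and 0.527 CPM, with a ratio of 1.34 (0.359 to 5.03). By antibody tag, *HBB* stood at 0.537 CPM in 6354 CD4hi CD8lo cells (11 UMIs) and 0.441 CPM in 1942 CD4hi CD8hi cells (4 UMIs), a ratio of 0.821 for the second to the first (0.191 to 2.77). It had 0 UMIs in 417 CD4lo CD8hi cells and 1 in 116 CD4lo CD8lo cells, droplet 1 left out. Cells with at least 2 *FOXP3* UMIs (161) and cells with at least 3 *GZMK* UMIs (364) had 0, and 62 cells with at least 2 *CCR6* UMIs had 1. The highest of these levels, 2.63 CPM in the *CCR6* cells, rested on 1 UMI, and the intervals of all groups with a count above 0 overlapped. *ALAS2* was at 0 in each of these groups.

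**Figure D4:**
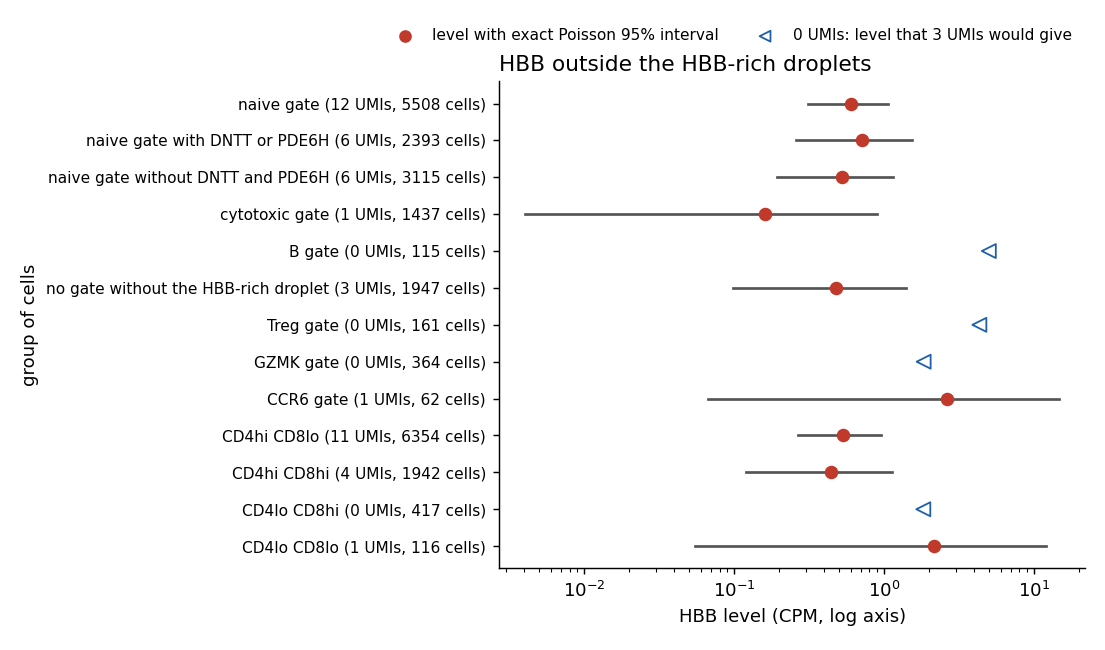
*HBB* level (CPM, log axis) by gate and by tag group, without the *HBB*-rich droplets; points are levels with exact Poisson 95% intervals, and open triangles give the level that 3 UMIs would make where the count was 0. The intervals of the naïve gate (0.605 CPM) and the cytotoxic gate (0.160 CPM) overlap, as do those of all other groups with a count above 0.

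By depth the levels were also close, with overlapping intervals. The shallower 4415 kept cells held 6 *HBB* UMIs, or 0.534 CPM (0.196 to 1.16), and the deeper 4414 held 10, or 0.489 CPM (0.235 to 0.900). The 122 barcodes outside the limits other than droplet 2 held 0.

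A single droplet set the rank of *HBB* and *ALAS2* among the leading genes of a cluster. The cells were clustered without the erythroid list, which gave 15 clusters. Droplet 1 fell in cluster 11, a cluster of 542 cells with 3261 CPM of the naïve list. Over these cells *HBB* stood at 2578 CPM and *ALAS2* at 29.0 CPM. In the ranking of genes by CPM against all other cells, *HBB* was rank 1, ENSMFAG00000003180 and ENSMFAG00000037705 followed, and *ALAS2* was rank 4. Without droplet 1, the same cluster held 2 *HBB* UMIs, or 1.16 CPM (0.141 to 4.21), and 0 of *ALAS2*, and the small non-coding RNAs RNase_MRP and 7SK led it. The other 14 clusters ran from 0 to 1.02 CPM of *HBB* and all had 0 *ALAS2* UMIs, and without the droplet the intervals of all clusters with *HBB* overlapped.

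**Figure D5:**
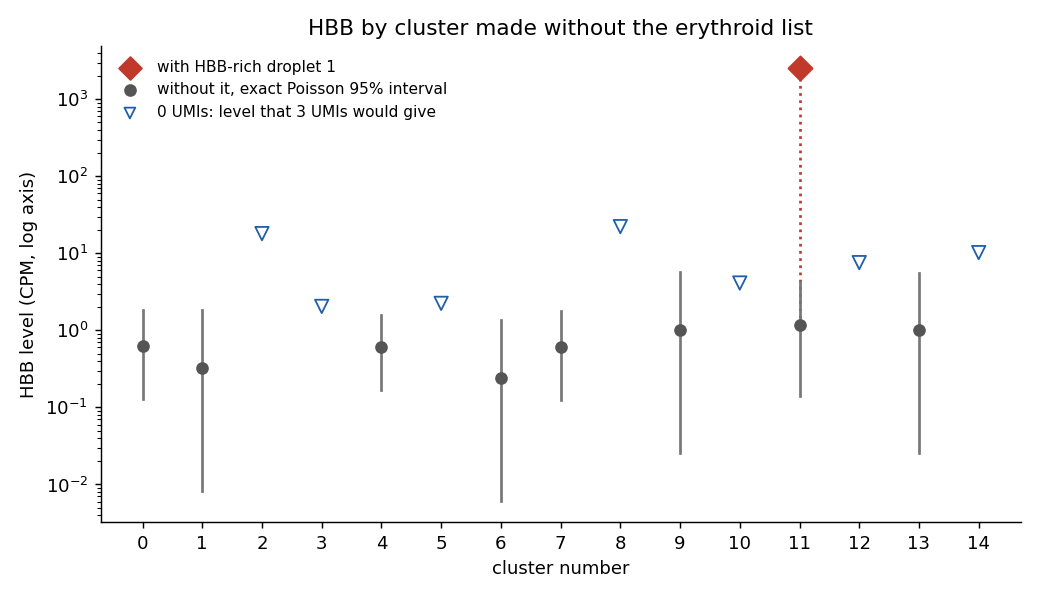
*HBB* level (CPM, log axis) in the 15 clusters made without the erythroid list; circles are levels with exact Poisson 95% intervals without droplet 1, open triangles the level that 3 UMIs would make where the count was 0, and the diamond cluster 11 with droplet 1. Cluster 11 falls from 2578 to 1.16 CPM when that droplet is left out.

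Cells with *HBB* had few neighbours with *HBB*. Among the 20 nearest neighbours of each of the 17 kept cells with *HBB*, 3 of 340 had *HBB* (0.882%), against 0.184% among the neighbours of the cells without it. Droplet 1 had no neighbour with *HBB*, and its neighbours had a median of 671.5 genes and 2.45% mitochondrial UMIs. Scrublet, which scores droplets that resemble sums of 2 cells, gave droplet 1 a score of 0.0389, higher than 10.0% of kept cells, and called 0 cells.

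The genes most like *HBB* over the 8830 kept cells were those of droplet 1. The Pearson correlation of log-normalized values, over 10177 genes with at least 50 UMIs, was 0.83 with *ALAS2*, 0.66 with ENSMFAG00000037705, 0.40 with *CA1*, 0.27 with ENSMFAG00000003180 and 0.13 with *STRADB*. The same genes followed *HBB* in the order for *ALAS2*, at 0.80, 0.49, 0.34 and 0.15. All cells share 1 library, and the values rest on droplet 1. Without it the highest correlation of any gene with *HBB* was 0.14, and *ALAS2* had no UMIs left to correlate.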

How the data were processed

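The authors aligned 10x 5′ libraries with Cell Ranger 3.1.0 and STAR 2.5.1b to the *Macaca fascicularis* 5.0 genome and filtered cells in Seurat 3.1.3. The deposited values are unnormalized UMI counts of genes and tags in each barcode, from before that filter. The study's limits were applied here, and Scrublet removed no cell. With 1 animal, UMIs were summed per group with exact Poisson intervals, shares had Clopper-Pearson intervals, and ratios came from the exact binomial split. The steps were checked on simulated data. Clustering used scanpy 1.11.5 with 2000 variable genes, 20 components, 20 neighbours and Leiden resolution 0.8. Tag groups were cut at 146 CD4 and 503 CD8 UMIs, from 2-component mixtures of log10(UMIs + 1). Intervals were made in Python 3.11.15 with scipy 1.17.1.

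The members, the 18 gene lists and the gates were chosen with earlier results of these data known. An *HBB*-rich droplet had at least 5 *HBB* UMIs. Named genes are the members, genes of the erythroid, haem and iron lists, and genes that correlated most with a member or led the cluster with the highest *HBB*. *OAZ1*, *GPX4*, *ISCA1*, *BNIP3L*, *B2M*, *PTPRC*, *CD52*, RNase_MRP and 7SK were named after their values were seen. The 12 naïve gate cells with *HBB* held 43622 gene UMIs, too few for ratios per gene. Of the 29324 genes, 7899 had no symbol in the files. Coordinates and sequences were not used here, and the values of some listed genes are not reported.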

Additional observations from a re-analysis of the deposited data

Results flagged for a closer look

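*HBB* had 1224 UMIs in a barcode outside the limits on cells, droplet 2, which none of the comparisons between groups of cells used. It was picked out because the other 122 barcodes outside the limits held 0 *HBB* UMIs, whose sum of gene UMIs allows 10.4 CPM. The barcode had 50 genes, under the minimum of 200, and 0 mitochondrial UMIs, so that only the limit on genes kept it out. The limit on genes did not keep out droplet 1, which had 310.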

How the results depend on the processing

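The log2 ratio of *HBB* CPM between the naïve and cytotoxic gates stayed above 0 under the 12 other settings tried (1.29 to 2.04), and its interval included 0 in each of the 11 that gave an interval. The B gate cut-off and leaving out cells with 5 or more *HBB* UMIs are among the 12 and could not change this ratio. Neither gate uses *CD79A*, and droplet 1 was in no gate. The ratio rests on 13 UMIs. For the naïve to B ratio, the B gate held an *HBB* UMI only when at least 1 *CD79A* UMI was asked for, with 1 UMI in 129 cells, or 1.55 CPM. The other settings for that ratio, and all those for *ALAS2* in the gates, had a count of 0 and gave no value.

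Levels depended on droplet 1. Over kept cells *HBB* was 141 CPM, 0.505 CPM without droplet 1 and 178 CPM with no limits on barcodes. *ALAS2* was 1.58 CPM and 0 CPM without droplet 1. In the cluster with droplet 1, *HBB* was 2578 CPM, 1.16 CPM without that droplet, 9108 CPM with clusters from all genes and 3664 CPM with the pair of unnamed genes also left out. *ALAS2* was 29.0, 0, 102.4 and 41.2 CPM in the same order. These alternatives were chosen after seeing the data. The log2 ratio of *HBB* between the highest cluster and the lowest, whose 0 UMIs were set to 3, was at least 10.30, and 7.69 at resolution 0.4, 11.27 at resolution 1.2, 9.87 with 10 components and 7.90 with 30 components. The highest cluster was that of droplet 1. Without the counts of droplet 1, cluster 11 was still the highest, with 2 *HBB* UMIs, and the lowest cluster held 0, again set to 3. The log2 value of -0.82 is then no measure of a difference, since both counts lie under the limit of 3. The share of neighbours with *HBB* was 0.699 percentage points higher for cells with *HBB*, and -0.213 with 10 components. The cause was not tested. No paired analysis was possible because the series has 1 gene library of 1 animal and no replicate numbers. With 16 *HBB* UMIs outside the droplets, only large differences between cell types could have been seen.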

Other observations

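Some genes of the *HBB*-rich droplets were also read in other cells, without *HBB* and *ALAS2*. ENSMFAG00000003180, the second most abundant gene of both droplets, had 367 UMIs in 276 other barcodes, with at most 4 in any of them. It stood at 53.4 CPM in the cytotoxic gate (95% interval 47.8 to 59.4) and at 2.17 CPM in the naïve gate (1.57 to 2.92), a log2 ratio of naïve to cytotoxic of -4.62 (-5.12 to -4.16). With the 176 cells of both gates left out, the levels were 60.6 and 0.539 CPM. Outside the droplets there were 0.0436 *HBB* UMIs for each UMI of ENSMFAG00000003180, against 1.29 and 2.02 in the droplets. By tag, CD4lo CD8hi cells had the highest level, 39.6 CPM (30.6 to 50.5), and CD4hi CD8lo cells 5.47 CPM (4.50 to 6.58). Inside the cytotoxic gate, CD4hi cells stood at 50.9 CPM (45.0 to 57.3) and CD4lo cells at 66.9 CPM (51.6 to 85.3), and these intervals overlap.

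*CA1* showed the same direction. It had 41 UMIs in 22 barcodes outside the droplets, with up to 11 in 1 barcode. Of these UMIs, 40 lay in 21 cytotoxic gate cells, at 6.41 CPM (4.58 to 8.73). The naïve gate held 2, at 0.101 CPM (0.0122 to 0.364), with a cell of both gates counted in each. UMIs that share a cell are not independent, so the interval of the cytotoxic gate is too narrow. *HBQ1* had 23 UMIs in the kept cells. The cytotoxic gate held 19, at 3.05 CPM (1.83 to 4.76), and the naïve gate 4, at 0.202 CPM (0.0549 to 0.516). *HEMGN*, a nuclear protein of blood-forming cells, leaned the other way, with 0 UMIs in both droplets. It had 30 UMIs in the naïve gate, at 1.51 CPM (1.02 to 2.16), and 2 in the cytotoxic gate, at 0.321 CPM (0.0388 to 1.16). These intervals overlap. The genes read in droplet 1 did not all lean to the cytotoxic gate. As log2 ratios of naïve to cytotoxic, *GYPC* was at 0.594 (0.503 to 0.685) and *STRADB* at 0.0584 (-0.771 to 0.965). *BNIP3L* was at -0.189 (-0.318 to -0.0588) and *SLC25A37* at -0.410 (-0.668 to -0.147). *FECH* was at -1.33 (-1.61 to -1.04) and ENSMFAG00000037705 at -2.84 (-4.99 to -0.998). With 1 animal, these are values of this library, and the cause was not tested.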
